A study of Mus musculus with 9 samples.

Results

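The genes of MHC class I antigen presentation were followed in 9 spleen RNA libraries of mice. The 10 genes were chosen by name: the light chain gene B2m, the heavy chain genes H2-K1, H2-D1 and H2-T23, the peptide transporter genes Tap1 and Tap2, the loading factor gene Tapbp, the immunoproteasome subunit genes Psmb8 and Psmb9, and Nlrc5, the class I transactivator. This choice was made with earlier results of these data known. All 10 were among the 21965 gene identifiers counted and all 10 were among the 7719 genes with enough counts to be tested. There were 3 libraries from female BWF1, 3 from male BWF1 and 3 from female BALB/c mice, all 16 weeks old. BWF1 is the F1 cross of NZB and NZW mice. The series title calls its females lupus-prone and both other groups non-lupus-prone. No transgene, deletion or treatment is named for any group. The labels do not say whether a library holds RNA of 1 animal or of a pool, so the p-values measure the spread between these libraries.

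MHC class I molecules show peptides from inside the cell to CD8+ T cells and to natural killer cell receptors. The proteasome cuts proteins into peptides, and its interferon-induced subunits (Psmb8, Psmb9 and Psmb10) replace standard catalytic subunits. TAP, a dimer of the Tap1 and Tap2 products, moves peptides into the endoplasmic reticulum, where tapasin (Tapbp) and the chaperones calreticulin, calnexin and ERp57 help to load them onto a heavy chain bound to beta-2-microglobulin (B2m). NLRC5 raises the transcription of these genes. Nearly all nucleated cells express the pathway, and lymphocytes do so strongly.

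The H2 complex on chromosome 17 differs between the strains. BALB/c and NZB mice carry the d haplotype and NZW mice the z haplotype, so BWF1 mice of both sexes are d/z, whereas mm10, the build named in the submitters' processing notes, comes from C57BL/6 mice with the b haplotype. Of the 10 genes, 8 lie in this complex. B2m lies on chromosome 2 and Nlrc5 on chromosome 8. Between BWF1 and BALB/c mice, a different transcript level of an H2 gene and a different share of its reads placed on the mm10 sequence cannot be told apart. BWF1 females and males share their H2 haplotypes. H2-L, a heavy chain gene of the d haplotype that C57BL/6 mice lack, was not analysed here.

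The heavy chain genes are near copies of each other, which bears on how reads were assigned. The start of exon 4, which encodes the immunoglobulin-like domain that touches beta-2-microglobulin, is shown for the 3 heavy chain genes from the GENCODE M21 transcripts, 5′ to 3′, with capitals where a base differs from H2-K1. The stretches are chr17:33997441-33997560 on the minus strand for H2-K1, chr17:35265784-35265903 on the plus strand for H2-D1 and chr17:36030978-36031097 on the minus strand for H2-T23 (mm10).
H2-K1: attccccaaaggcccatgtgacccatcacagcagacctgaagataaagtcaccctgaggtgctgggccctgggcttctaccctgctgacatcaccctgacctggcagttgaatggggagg
H2-D1: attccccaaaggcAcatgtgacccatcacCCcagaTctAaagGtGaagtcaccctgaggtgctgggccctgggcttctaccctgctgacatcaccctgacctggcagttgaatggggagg
H2-T23: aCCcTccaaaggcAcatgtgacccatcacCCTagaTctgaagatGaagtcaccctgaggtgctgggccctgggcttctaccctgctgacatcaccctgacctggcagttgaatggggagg
H2-D1 differed from H2-K1 at 7 of these 120 bases and H2-T23 at 9. Over the whole exon of 276 bases, identity with H2-K1 was 96.0% for H2-D1 and 95.3% for H2-T23. Cut into every possible stretch of 50 bases, 9.63% of the H2-K1 transcript sequence, 12.8% of H2-D1 and 14.5% of H2-T23 also occurred in another gene, against 0% of B2m and 0.338% of Nlrc5. Tapbp shared 23.2%, mostly with Gm19412, Tap2 shared 11.6%, mostly with Gm15821, and Psmb8 shared 11.9%, mostly with Gm20496. Tap1 and Psmb9 stand head to head, and their annotated gene bodies overlap by 212 bases. The read length and the strand setting of the counting are not given in the sources used here, so reads from such stretches, and from the Tap1 and Psmb9 overlap, cannot be assigned with certainty.

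Class I promoters are known for an enhancer bound by NF-kappaB and interferon regulatory factors and for the SXY module through which NLRC5 acts. Stretches upstream of 3 genes are shown from the RefSeq promoter windows (GRCm38.p6), with capitals at the letters searched on both strands: GGGATTCCC, GAANNGAAA, GAAANNGAA, TGACG and ATTGG. They cover chr2:122147544-122147642 on the plus strand for B2m, chr17:34000355-34000461 on the minus strand for H2-K1 and chr17:35262920-35263049 on the plus strand for H2-D1.
B2m: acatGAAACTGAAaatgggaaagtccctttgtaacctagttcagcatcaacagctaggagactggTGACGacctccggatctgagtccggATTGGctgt
H2-K1: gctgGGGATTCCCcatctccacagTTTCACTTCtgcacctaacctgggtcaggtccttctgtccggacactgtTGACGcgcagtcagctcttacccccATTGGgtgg
H2-D1: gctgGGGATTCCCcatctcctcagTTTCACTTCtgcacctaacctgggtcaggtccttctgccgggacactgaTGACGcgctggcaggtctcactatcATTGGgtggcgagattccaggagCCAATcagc
No 2 of these matches overlap each other in the stretches shown. In the 250 bases before the start, GGGATTCCC stood in H2-K1 and H2-D1 and in 0.301% of all 32851 windows. GAANNGAAA stood in the same 2 genes and in 6.31% of windows, and GAAANNGAA in B2m and H2-T23 and in 7.13% of windows. TGACG was found in 17.8% of windows and ATTGG in 33.8%, so both are common letters. Other spellings of these sites were not searched, so a gene without a match, such as B2m for GGGATTCCC, may still hold such a site. Of the 10 genes, 8 had a window in the table; Tap2 and Nlrc5 had none.

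The depth was low and several libraries stood apart. Gene counts per library ran from 458608 to 4305003, of which the single gene Lars2 held 42.3% to 76.6%. Of the alignments, 1.29% to 2.05% were counted in genes in the BWF1 libraries and 2.14% to 2.82% in the BALB/c ones. This share is thus tied to strain, and its part in the comparisons with BALB/c mice was not tested. Levels are given as counts scaled to a library total of 1000000 (CPM) after adjusting the totals by the trimmed mean of M-values (TMM), with factors of 0.530 (BWF1 male 1) to 1.40 (BALB/c female 2). On that scale 3 counts stood at 0.625 to 6.62 CPM, a floor that covers counting error only. The 4 Y-linked genes checked had 0 counts in the 6 female libraries and 45 to 373 counts in each male library. The labels disagree on the cells: splenocytes are given in the title and design text, but the labels of single samples speak of macrophages taken by a CD11b and F4/80 sort. The 10 B cell markers summed to 2449 ± 98.0 CPM in female BWF1 spleens, 2720 ± 326 in male BWF1 spleens and 3362 ± 19.6 in female BALB/c spleens, against 236 ± 9.41, 639 ± 129 and 377 ± 37.6 CPM for the 12 macrophage and gate markers in the same order (SD, n = 3 each). Itgam, which encodes CD11b, averaged 0.538 ± 0.931 CPM in female BWF1 spleens, 4.87 ± 2.47 in male BWF1 spleens and 5.52 ± 0.912 in female BALB/c spleens. These levels go against a label of sorted macrophages, and the levels below are those of mixed spleen cells, in which fewer cells of a type and less RNA per cell cannot be told apart.

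Per kilobase of annotated exon, B2m stood highest, at 752 ± 173 CPM per kb over the 9 libraries (SD). H2-D1 followed at 422 ± 68.0 and H2-K1 at 353 ± 47.9 CPM per kb. The nonclassical heavy chain gene H2-T23, whose product Qa-1 is a ligand of the CD94/NKG2A receptor, stood at 85.8 ± 15.9 CPM per kb. Tapbp (82.2 ± 15.9), Psmb8 (63.7 ± 11.5), Psmb9 (37.3 ± 5.58), Tap1 (35.8 ± 6.08) and Tap2 (20.1 ± 3.12) came next. Nlrc5 was lowest, at 8.90 ± 1.53 CPM per kb. Of the 9 pairs of neighbours, all but a pair of exceptions kept this order in 9 of 9 libraries. These were H2-T23 over Tapbp, in 5 of 9 libraries, and Psmb9 over Tap1, in 6 of 9, so these pairs did not differ beyond their spread. Between the lowest and the highest library the level of a gene varied by 1.5 times (H2-K1) to 2.24 times (B2m). No group carries the b haplotype of mm10, so the share of reads placed may differ between H2 complex genes and the others. The order of levels was not corrected for this.

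**Figure D1:**
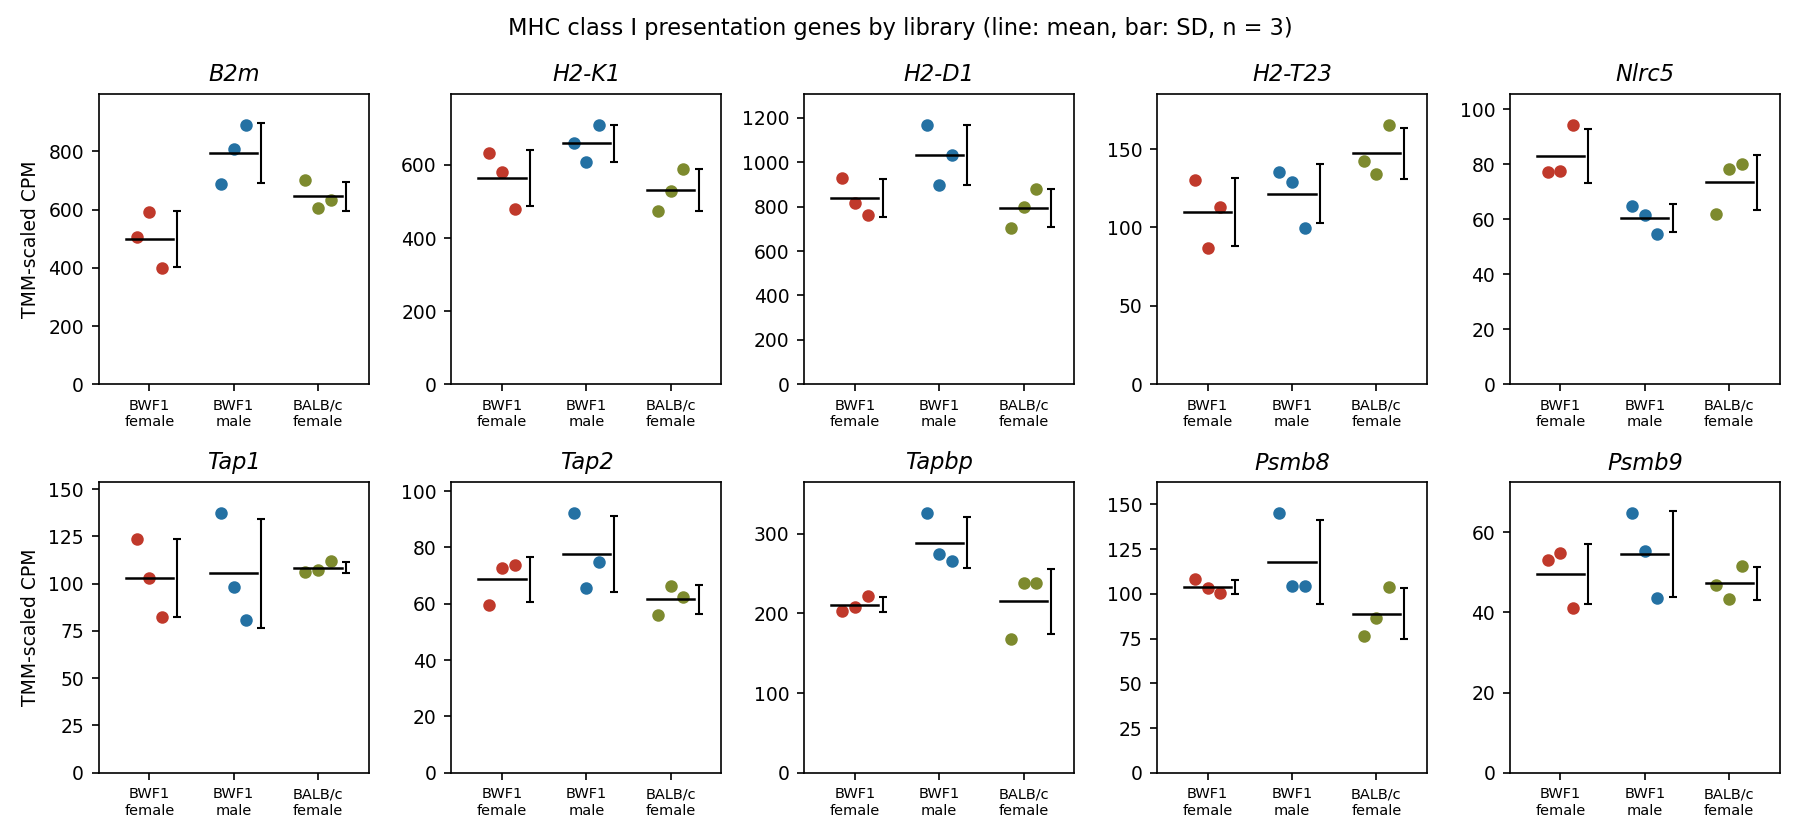
TMM-scaled CPM (vertical axes, from 0) of the 10 class I presentation genes in each library of the 3 groups (BWF1 females left, then BWF1 males, BALB/c females right); points are libraries, lines means and bars SD (n = 3). All 3 BWF1 female libraries lie below all 3 BWF1 male libraries for B2m and Tapbp and above them for Nlrc5.

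BWF1 females were first set against BWF1 males, which share their strain, age and H2 haplotypes. B2m was lower in the females. It had 507, 590 and 398 CPM in female BWF1 spleens and 686, 807 and 892 CPM in male BWF1 spleens. The highest female library lay below the lowest male one. The means were 499 ± 96.4 CPM in female BWF1 spleens and 795 ± 103 CPM in male BWF1 spleens (SD, n = 3 each), a log2 fold change of −0.67 (SE 0.16; edgeR quasi-likelihood test, adjusted p = 0.0188). It was the 1 gene of the 10 that was called at an adjusted p under 0.05, where 2.19% of all genes tested were called in either direction and 1.23% as lower. DESeq2 and limma-voom each called 1 of the 10 as well, with B2m at adjusted p = 0.00168 and 0.00234; here DESeq2 adjusted over fewer genes, since it gave no adjusted p to 69.8% of them, none of the 10 among these. The call did not hold with library size as the sole scaling (adjusted p = 0.827), nor without BWF1 female 1 (0.0595), BWF1 female 3 (0.0939), BWF1 male 2 (0.0585) or BWF1 male 3 (0.130), while the log2 fold change stayed between −0.82 and −0.53 under all 19 alternatives. With the 4 libraries tagged RL in their file names, 2 a group, it was −0.82 (edgeR adjusted p = 0.0375); The other tag, ORIG, marks 5 libraries, namely BWF1 female 2, BWF1 male 2 and all 3 BALB/c females. No BALB/c library is tagged RL, so against BALB/c mice the tag is partly tied to strain. The meaning of the tags is not given.

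The 3 heavy chain genes had lower means in the females on the TMM scale without passing the test. H2-K1 had 633, 581 and 480.5 CPM in female BWF1 spleens and 659, 607 and 710.2 CPM in male BWF1 spleens. H2-D1 had 931, 816 and 764 CPM in female BWF1 spleens and 1169, 898 and 1031 CPM in male BWF1 spleens. For both genes the groups overlapped. The log2 fold changes were −0.22 (SE 0.15; edgeR adjusted p = 0.486) for H2-K1 and −0.30 (SE 0.15; adjusted p = 0.305) for H2-D1. H2-T23 averaged 110 ± 21.6 CPM in female BWF1 spleens and 121 ± 18.9 CPM in male BWF1 spleens.

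Of the loading genes, Tapbp, which bridges TAP and the empty heavy chain, had 203, 208 and 222 CPM in female BWF1 spleens and 326, 275 and 266 CPM in male BWF1 spleens. The groups did not overlap, yet the difference of −0.45 on the log2 scale (SE 0.16) had an edgeR adjusted p of 0.138. Tap1 averaged 103 ± 20.7 CPM in female BWF1 spleens and 106 ± 28.8 CPM in male BWF1 spleens, and Tap2 68.7 ± 7.94 and 77.5 ± 13.5 CPM in the same order. Psmb8 averaged 104 ± 3.78 CPM in female BWF1 spleens and 118 ± 23.5 CPM in male BWF1 spleens, and Psmb9 49.6 ± 7.47 and 54.5 ± 10.6 CPM. For these 4 genes the groups overlapped.

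Nlrc5 stood alone in its sign. It had 77.2, 77.4 and 94.4 CPM in female BWF1 spleens and 64.7, 61.5 and 54.8 CPM in male BWF1 spleens. The groups did not overlap, and the log2 fold change was 0.47 (SE 0.19; adjusted p by edgeR = 0.191). These levels rest on 35, 48 and 46 counts in female BWF1 spleens and 33, 60 and 263 counts in male BWF1 spleens. Over the 10 genes, 9 had a negative fold change and the median was −0.17 on the log2 scale, where TMM scaling puts the median of all genes near 0; library size as the sole scaling gave a positive sign to 5 of those 9 and moved the median of all genes by 0.16. Groups that did not overlap were found for 3 of the 10, against 18.7% of all genes, and an unadjusted p under 0.05 also for 3, against 16.4%.

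The same females were then set against BALB/c females of equal age, a comparison of strains within 1 sex. None of the 10 genes was called: edgeR, DESeq2 and limma-voom each called 0, where edgeR called 3.82% of all genes tested. An unadjusted p under 0.05 was found for 2, against 16.9% of all genes, namely B2m and H2-T23, whose groups were also the 2 that did not overlap (21.2% of all genes). B2m had 701, 604 and 631 CPM in female BALB/c spleens, all above the 398 to 590 CPM of the BWF1 females, with a difference of −0.37 on the log2 scale (SE 0.15; adjusted p by edgeR = 0.209), or −0.24 with the file name tag in the model (adjusted p = 0.648). H2-T23 had 130.1, 87.1 and 113 CPM in female BWF1 spleens and 142, 134 and 166 CPM in female BALB/c spleens. Its log2 fold change was −0.42 (SE 0.18; adjusted p by edgeR = 0.213).

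The other 8 genes had fold changes of −0.08 to 0.23 on the log2 scale. H2-K1 averaged 565 ± 77.5 CPM in female BWF1 spleens and 530 ± 57.2 CPM in female BALB/c spleens, and H2-D1 837 ± 85.3 and 794 ± 86.8 CPM in the same order. Tap1 averaged 103 ± 20.7 CPM in female BWF1 spleens and 108 ± 3.06 CPM in female BALB/c spleens, and Tapbp 211 ± 9.73 and 215 ± 40.4 CPM. The median over the 10 genes was 0.08. With library size as the sole scaling, which moved the median of all genes by −0.29, 6 of the 10 genes changed sign; relative to that shift 0 did.

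BWF1 males were also compared with BALB/c females, a pair that differs in both strain and sex. Here edgeR called 0 of the 10 genes, where it called 3.52% of all genes tested. DESeq2 called 0 and limma-voom 1, H2-D1 (adjusted p = 0.0388), where limma-voom called 650 genes in all and edgeR 272. An unadjusted p under 0.05 was found for 4, against 16.3% of all genes: H2-K1, H2-D1, Tapbp and Psmb8. For the same 4 genes the groups did not overlap, against 23.5% of all genes.

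H2-D1 averaged 1033 ± 135 CPM in male BWF1 spleens and 794 ± 86.8 CPM in female BALB/c spleens, a difference of 0.38 on the log2 scale (SE 0.15; adjusted p by edgeR = 0.175). H2-K1 averaged 659 ± 51.6 CPM in male BWF1 spleens and 530 ± 57.2 CPM in female BALB/c spleens, a log2 fold change of 0.31 (SE 0.15; adjusted p = 0.276). Tapbp averaged 289 ± 32.2 CPM in male BWF1 spleens and 215 ± 40.4 CPM in female BALB/c spleens, at 0.42 (SE 0.16; adjusted p = 0.149). Psmb8 had 145, 105 and 104.3 CPM in male BWF1 spleens and 76.2, 86.7 and 104.1 CPM in female BALB/c spleens, at 0.40 (SE 0.18; adjusted p = 0.246), so the nearest libraries of its groups almost touched. B2m averaged 795 ± 103 CPM in male BWF1 spleens and 645 ± 49.9 CPM in female BALB/c spleens, with overlapping groups. Nlrc5 had the 54.8 to 64.7 CPM given above in male BWF1 spleens and 61.8, 78.2 and 80.3 CPM in female BALB/c spleens. The median over the 10 genes was 0.31, with 7 positive; with library size as the sole scaling, which moved the median of all genes by −0.44, all 10 were negative, and relative to that shift 0 changed sign. The 3 comparisons share libraries by pairs, so their values are not independent of each other.

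**Figure D2:**
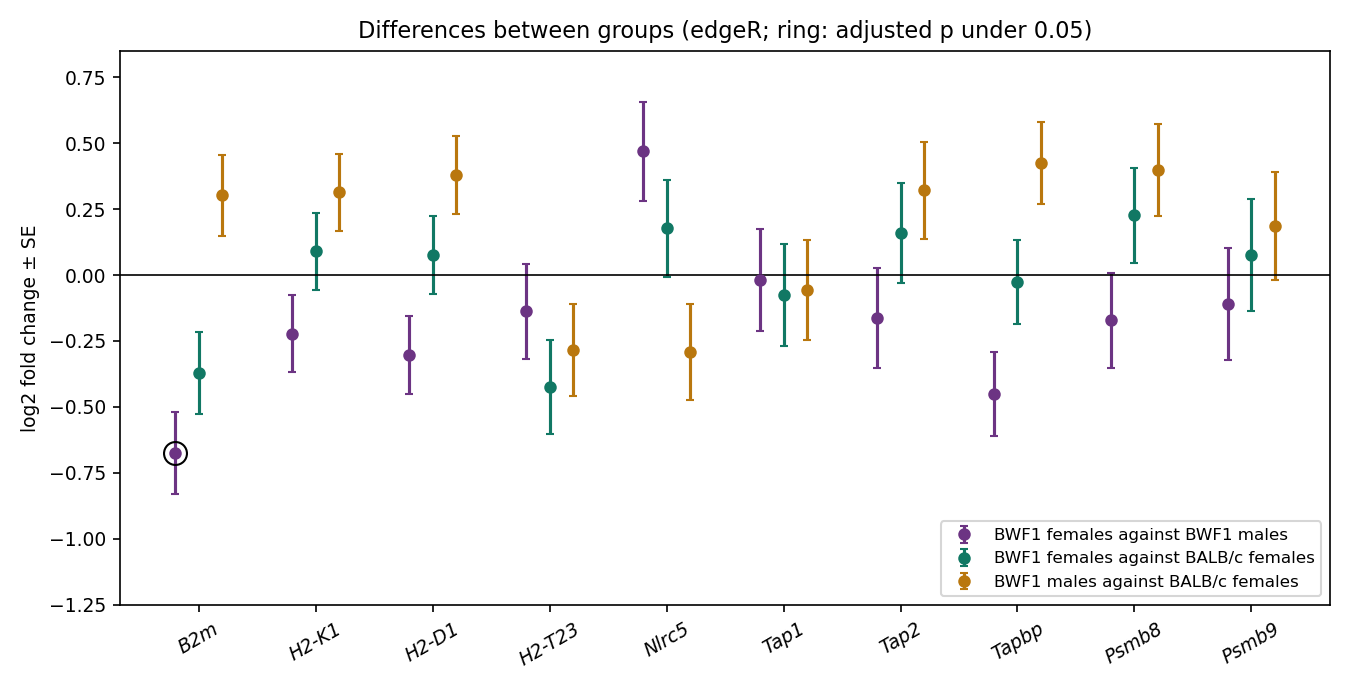
Log2 fold change (vertical axis) of the 10 class I presentation genes in the 3 comparisons, with standard errors from edgeR on TMM-scaled counts; a ring marks an adjusted p under 0.05. The 1 ring is B2m in BWF1 females against BWF1 males, at −0.67; with library size as the sole scaling its fold change was −0.53 and lost the ring, and the positive values of B2m, H2-K1, H2-D1, Tapbp, Tap2, Psmb8 and Psmb9 in BWF1 males against BALB/c females turned negative.

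Levels of several cell type markers moved with these comparisons. T cell markers (10 genes) summed to 388 ± 43.5 CPM in female BWF1 spleens (range 345 to 432), 620 ± 35.6 in male BWF1 spleens (598 to 661) and 482 ± 85.7 in female BALB/c spleens (391 to 561). The sum for 8 natural killer cell markers was 139 ± 21.2 CPM in female BWF1 spleens (126 to 163), 414 ± 25.8 in male BWF1 spleens (384 to 433) and 214 ± 17 in female BALB/c spleens (195 to 226). The macrophage and gate markers ran from 226 to 244 CPM in female BWF1 spleens, 490.1 to 716 in male BWF1 spleens and 341 to 416 in female BALB/c spleens, with no marker of these lists at 0 in all libraries of a group. In BWF1 females against BWF1 males, edgeR called 5 of 10 tested T cell markers, 5 of 7 natural killer cell markers and 6 of 10 macrophage markers lower, where it called 1.23% of all genes lower. DESeq2 called 2, 2 and 3 of them and gave no adjusted p to 6, 5 and 7; limma-voom called 5, 4 and 6. The sum for 6 plasma cell markers was 730.3 ± 146 CPM in female BWF1 spleens (563 to 831), 1609 ± 419 in male BWF1 spleens (1255 to 2071) and 764 ± 74.3 in female BALB/c spleens (681 to 824), with 1 of 6, Jchain, called lower by edgeR in BWF1 females against BWF1 males. The sum for 9 erythroid markers was 1358 ± 763 CPM in female BWF1 spleens, 537 ± 644 in male BWF1 spleens and 2157 ± 1364 in female BALB/c spleens. B2m was lowest where the mean T cell, natural killer cell, macrophage, neutrophil and plasma cell sums were lowest. It was highest where these sums were highest. Other lists did not follow it. The B cell and dendritic cell sums were lowest in BWF1 females but highest in BALB/c females. The erythroid sum and that of stromal and endothelial markers were lowest in BWF1 males and highest in BALB/c females. The part of cell makeup in the B2m difference was not tested.

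Ratios taken within a library do not depend on the scaling. H2-K1 made up 40.5%, 41.6% and 38.6% of the H2-K1 plus H2-D1 counts in female BWF1 spleens, 36.1%, 40.3% and 40.8% in male BWF1 spleens and 40.2%, 39.9% and 40.1% in female BALB/c spleens. The BALB/c libraries lay within 1 point of each other, and BWF1 male 1 was the lowest of the 9. The share averaged 39.6% ± 2.01 in the 6 libraries of BWF1 mice and 40.1% ± 0.173 in the 3 of BALB/c mice, a difference of −0.42 points (exact two-sided permutation test, p = 0.810; adjusted p = 0.989 over the 11 ratio tests made). The H2 haplotypes differ in this comparison, and the shares overlapped; without BWF1 male 1 the difference was 0.30 points.

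H2-K1 plus H2-D1 counts per B2m count, on the log2 scale, were 1.62, 1.24 and 1.64 in female BWF1 spleens, 1.41, 0.90 and 0.97 in male BWF1 spleens and 0.75, 1.13 and 1.22 in female BALB/c spleens. The BWF1 female libraries lay above all BALB/c libraries and overlapped with the males. The mean was 1.5 ± 0.23 in female BWF1 spleens and 1.03 ± 0.25 in female BALB/c spleens (SD, n = 3 each), a difference of 0.47 (exact permutation test, two-sided, p = 0.1, the smallest that 3 against 3 allows; adjusted p = 0.55). Against BWF1 males, at 1.09 ± 0.28, the difference was 0.41 (exact p = 0.2, adjusted p = 0.55). For BWF1 males against BALB/c females it was 0.06 (exact p = 0.9, adjusted p = 0.99), and −0.10 without BWF1 male 1. None of these tests of 3 against 3 could have passed 0.05. For the 6 BWF1 libraries against the 3 BALB/c ones the difference was 0.26 (exact permutation test, two-sided, p = 0.274, adjusted p = 0.55). The smallest p that this test allows is 0.0119.

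Psmb8 plus Psmb9 counts per count of the 14 standard 20S subunit genes, on the log2 scale, were −1.60, −1.58 and −1.33 in female BWF1 spleens, −1.07, −1.37 and −1.47 in male BWF1 spleens and −1.92, −1.67 and −1.56 in female BALB/c spleens. All BWF1 male libraries lay above all BALB/c ones. The difference between them was 0.42 (exact permutation test, two-sided, p = 0.1; adjusted p = 0.55). BWF1 females lay 0.21 above BALB/c females and 0.20 below BWF1 males (a difference of −0.20), each with an exact permutation p of 0.3 (adjusted p = 0.55). Per Psmb5 plus Psmb6 count, the difference of BWF1 females from BALB/c females was −0.16.

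**Figure D3:**
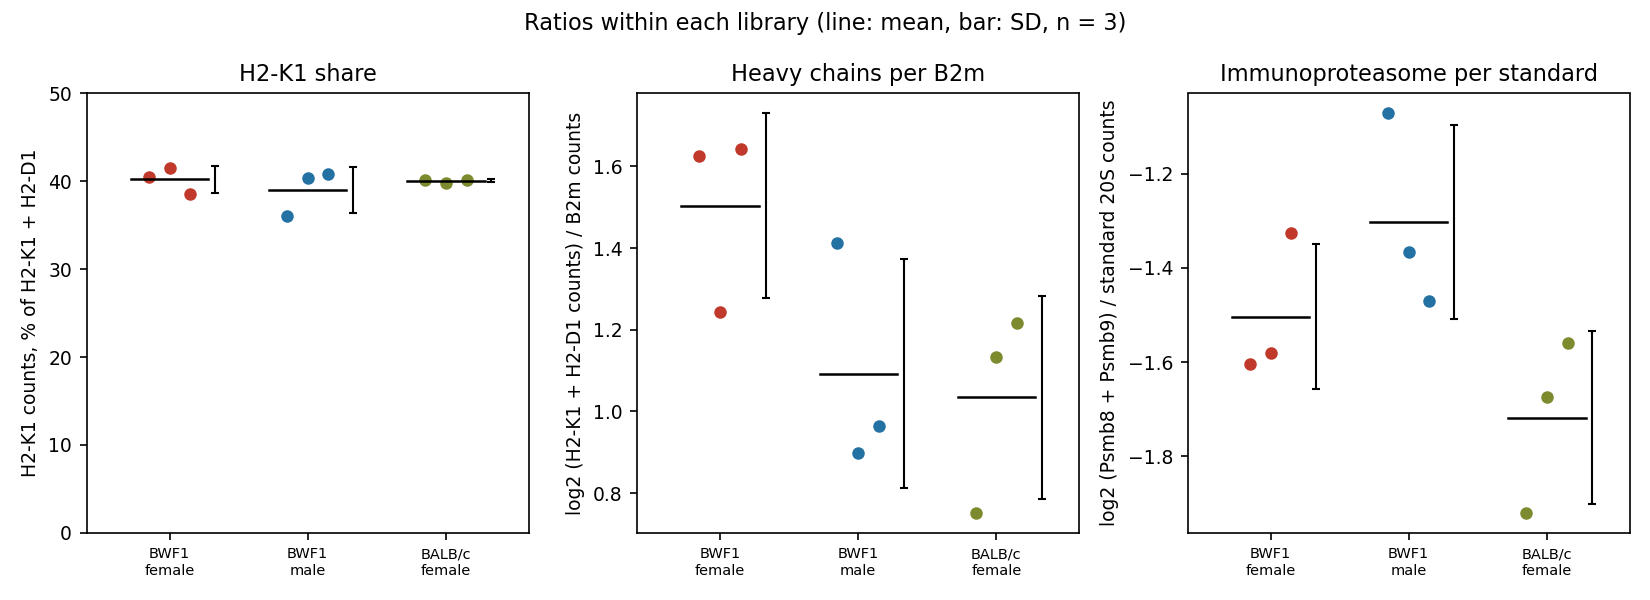
Ratios within each library of the 3 groups (BWF1 females left, then BWF1 males, BALB/c females right): the H2-K1 share of H2-K1 plus H2-D1 counts (percent, axis from 0), H2-K1 plus H2-D1 counts per B2m count, and Psmb8 plus Psmb9 counts per standard 20S proteasome count (log2, axes not from 0); points are libraries, lines means and bars SD (n = 3). The H2-K1 share stays near 40.1% in all 3 BALB/c libraries, and the heavy chain ratio is above the BALB/c values in all 3 BWF1 females.

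Other heavy chain genes of the complex were compared by a list of 20 class Ib and class I-like genes, of which 17 were counted and 11 tested. H2-Q2, a class Ib gene of the Q region, was higher in BWF1 mice. It had 24.3, 24.2 and 28.7 CPM in female BWF1 spleens, 37.3, 29.7 and 33.1 CPM in male BWF1 spleens and 9.34, 11.2 and 8.92 CPM in female BALB/c spleens. All 6 BWF1 libraries lay above the 3 BALB/c ones. The log2 fold change was 1.37 in female BWF1 spleens (SE 0.29; edgeR adjusted p = 0.00466) and 1.74 in male BWF1 spleens (SE 0.27; adjusted p = 0.000152) against BALB/c females.

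H2-T22, whose product is bound by some gamma delta T cell receptors, was lower in BWF1 mice. It had 30.9, 25.8 and 26.7 CPM in female BWF1 spleens, 37.3, 23.6 and 34.4 CPM in male BWF1 spleens and 61.8, 55.2 and 58.5 CPM in female BALB/c spleens. All 6 BWF1 libraries lay below the 3 BALB/c ones. The log2 fold change was −1.08 in female BWF1 spleens (SE 0.23; edgeR adjusted p = 0.00567) and −0.89 in male BWF1 spleens (SE 0.21; adjusted p = 0.0168). DESeq2 and limma-voom called both genes in both comparisons. For BWF1 females against BWF1 males, edgeR and limma-voom called 0 of the 11 genes, DESeq2 called 0 and gave no adjusted p to 9, and 0 had an unadjusted p under 0.05 by edgeR.

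Both genes share sequence with neighbours. Of the H2-T22 transcript sequence, 53.5% of stretches of 50 bases also occurred in another gene, 31.2% in H2-T10, which is not among the identifiers counted. For H2-Q2 the share was 16.1%, with 12.9% in H2-Q1. The H2-T22 difference of BWF1 males was no longer called without BWF1 male 2 (edgeR adjusted p = 0.112), BWF1 male 3 (0.0550) or any of the 3 BALB/c libraries (0.0570 to 0.0713). That of H2-Q2 was not called with library size as the sole scaling (0.323 in female BWF1 spleens, 0.0593 in male BWF1 spleens) nor, in BWF1 females, with the file name tag in the model (0.0531).

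**Figure D4:**
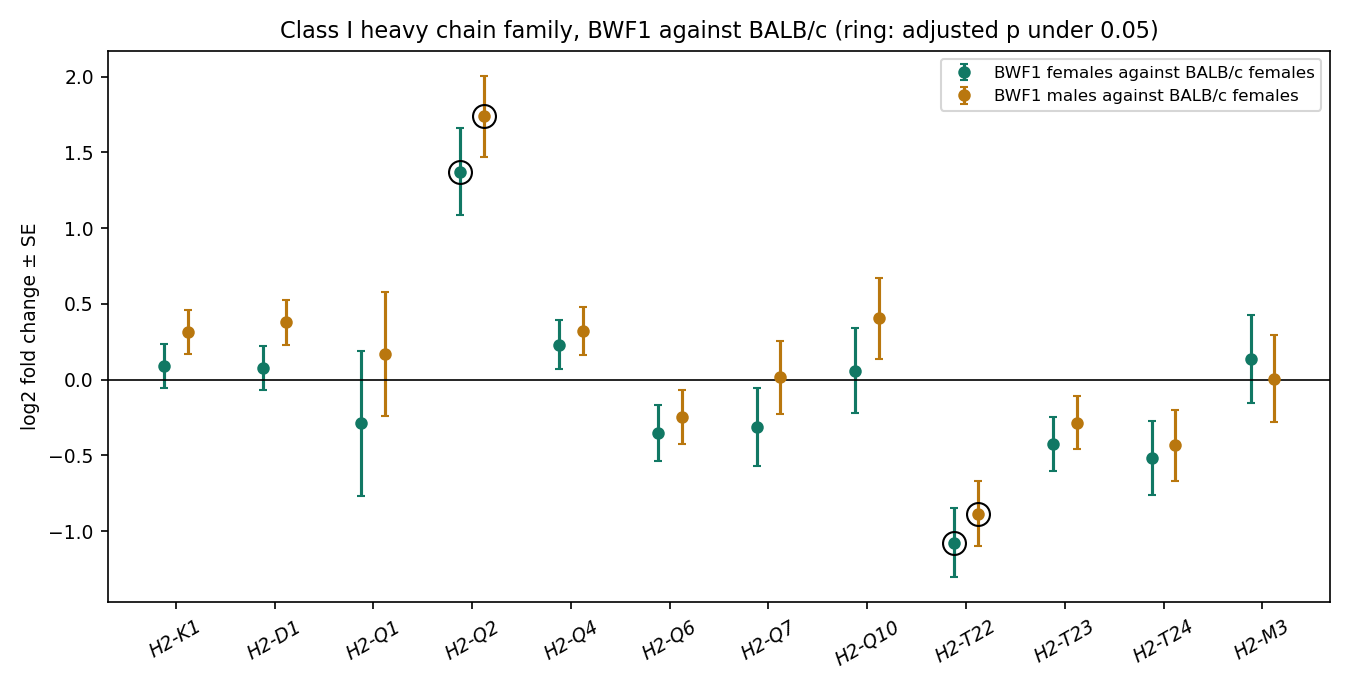
Log2 fold change (vertical axis) of the 12 tested class I heavy chain genes of the H2 complex in BWF1 females and in BWF1 males against BALB/c females, with standard errors from edgeR; a ring marks an adjusted p under 0.05. H2-Q2 lies at 1.37 and 1.74 and H2-T22 at −1.08 and −0.89, while H2-K1, H2-D1 and H2-T23 lie between −0.42 and 0.38.

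Over the stretch of chromosome 17 from Tapbp to H2-M2 (chr17:33915899-37483552, mm10), 88 genes were tested. Of these, 6.82% were called in BWF1 females against BWF1 males, 9.09% in BWF1 females against BALB/c females and 10.2% in BWF1 males against BALB/c females. Over the 7631 genes outside the stretch the shares were 2.14%, 3.76% and 3.45% in the same order. The first comparison, in which haplotypes do not differ, thus also had a larger share in the stretch; its called genes, listed after their values were seen, were Ddx39b, Col11a2, Tnxb, B3galt4, C4b and Hspa1b.

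Further genes of the pathway were read from lists chosen by function. Of 10 peptide loading and chaperone genes, edgeR called 0 in BWF1 females against BWF1 males, with all 10 fold changes negative (median −0.28; 2 at an unadjusted p under 0.05; limma-voom 0; DESeq2 0, with no adjusted p for 2). Ganab, the catalytic subunit of glucosidase II, had the lowest p, at 81.0 ± 5.23 CPM in female BWF1 spleens and 108 ± 5.86 CPM in male BWF1 spleens (−0.42; edgeR adjusted p = 0.193). Against BALB/c females, 0 of 10 were called in BWF1 females (2 at an unadjusted p under 0.05; DESeq2 and limma-voom 0), with Hspa5, the chaperone BiP, lowest at adjusted p = 0.273. In BWF1 males edgeR and DESeq2 called 1 of 10 and limma-voom 2 (Calr and Hspa5). Calr, which encodes calreticulin, had 471, 352 and 388 CPM in male BWF1 spleens and 264, 249 and 261 CPM in female BALB/c spleens, a difference of 0.64 on the log2 scale (SE 0.15; adjusted p by edgeR = 0.0126). Hspa5 averaged 377 ± 113 CPM in male BWF1 spleens and 239 ± 19.2 CPM in female BALB/c spleens, at 0.65 (SE 0.19; adjusted p = 0.0526). Plasma cell markers, summed above, were also higher in this comparison, with 4 of 6 called by edgeR, and their part in the chaperone values was not tested. The Calr call was lost without BALB/c female 2 (0.0896), with the file name tag in the model (0.0928) and with library size as the sole scaling (0.814).

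Of 6 tested genes of the immunoproteasome, its activators and assembly factors, edgeR, DESeq2 and limma-voom called 0 in each of the 3 comparisons, with 0, 2 and 1 at an unadjusted p under 0.05 in the order used above; in BWF1 females against BWF1 males DESeq2 gave no adjusted p to 1. Psmb10, the remaining immunoproteasome subunit, averaged 52.2 ± 14.8 CPM in male BWF1 spleens and 35.5 ± 2.91 CPM in female BALB/c spleens (log2 fold change 0.53; edgeR adjusted p = 0.221). Psme2, of the PA28 activator, averaged 60.9 ± 15.2 CPM in female BWF1 spleens and 42.1 ± 5.14 CPM in female BALB/c spleens (0.53; adjusted p = 0.191). Psme4, the PA200 activator, averaged 53.7 ± 6.72 CPM in female BWF1 spleens and 42.2 ± 2.6 CPM in male BWF1 spleens (0.36; adjusted p = 0.427). Of the 14 standard subunit genes, the same tools called 0 in each comparison, with 2, 0 and 0 at an unadjusted p under 0.05 and 11 without an adjusted p from DESeq2 in BWF1 females against BWF1 males. Psmb7, the subunit that Psmb10 replaces, averaged 27.4 ± 5.91 CPM in female BWF1 spleens, 16.7 ± 2.88 CPM in male BWF1 spleens and 23.5 ± 3.52 CPM in female BALB/c spleens, and Psmb2 averaged 26.9 ± 6.22 CPM in female BWF1 spleens and 36.1 ± 1.34 CPM in female BALB/c spleens.

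Of 14 tested transcription factor genes that act on class I promoters, edgeR, DESeq2 and limma-voom called 0 in each comparison, with 0, 1 and 2 at an unadjusted p under 0.05 and 4 without an adjusted p from DESeq2 in BWF1 females against BWF1 males. Rfx5, a subunit of the RFX complex of the SXY module, averaged 34.1 ± 5.39 CPM in male BWF1 spleens and 50.1 ± 2.26 CPM in female BALB/c spleens (log2 fold change −0.55; edgeR adjusted p = 0.172). Atf1, of the CREB family, averaged 31.7 ± 3.49 CPM in female BWF1 spleens and 18.0 ± 4.09 CPM in female BALB/c spleens (0.83; adjusted p = 0.129). Rela, the p65 subunit of NF-kappaB, averaged 55.9 ± 6.85 CPM in female BWF1 spleens and 73.0 ± 14.1 CPM in male BWF1 spleens (−0.40; adjusted p = 0.311).

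Of 11 tested genes known to be induced by interferon-gamma, edgeR and limma-voom called 1 in BWF1 females against BWF1 males, with 3 at an unadjusted p under 0.05; DESeq2 called 0 and gave no adjusted p to 10. The called gene was Igtp, an immunity-related GTPase, with 22.1, 4.84 and 16.4 CPM in female BWF1 spleens and 35.3, 36.9 and 32.9 CPM in male BWF1 spleens (log2 fold change −1.32, SE 0.35; edgeR adjusted p = 0.0462). That call was lost under 10 of 18 alternatives, and the value of BWF1 female 2 stood at the floor of 3 counts. Gbp3, a guanylate-binding protein gene, was the 1 gene called by edgeR and by limma-voom in BWF1 females against BALB/c females (DESeq2 called 0), with 46.3, 38.7 and 18.5 CPM in female BWF1 spleens and 19.4, 11.2 and 13.9 CPM in female BALB/c spleens (1.21, SE 0.33; adjusted p = 0.0317). Its groups overlapped, and the call was lost under 7 of 18 alternatives. Of the 6 genes at an unadjusted p under 0.05 there, Gbp3 alone had a positive fold change; Gbp4 (−0.78), Gbp5 (−0.84), Igtp (−0.77), Irgm2 (−0.88) and Ciita (−0.46) had negative ones, with edgeR adjusted p from 0.0650 for Gbp4 to 0.268 for Igtp. In BWF1 males against BALB/c females edgeR and DESeq2 called 0 of 11, limma-voom called 2 (Gbp4 and Cxcl9), and 6 had an unadjusted p under 0.05. The chemokine gene Cxcl9 had 1.96, 6.15 and 1.46 CPM in male BWF1 spleens and 7.91, 12.5 and 10.9 CPM in female BALB/c spleens. Its value in BWF1 male 1 lay under the floor of that library, 5.88 CPM.

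Among receptors that read class I molecules, 4 of 13 listed genes were tested. Cd8a and Cd8b1, the chains of the CD8 coreceptor, were lower in BWF1 females than in BWF1 males. These are 2 of the 5 T cell markers called lower there, beside Cd3e, Cd3g and Cd4. Cd8a had 24.3, 9.68 and 14.4 CPM in female BWF1 spleens and 56.9, 40.0 and 61.6 CPM in male BWF1 spleens (log2 fold change −1.75, SE 0.29; edgeR adjusted p = 0.00121). Cd8b1 had 6.62, 9.68 and 34.9 CPM in female BWF1 spleens and 45.1, 60.5 and 72.7 CPM in male BWF1 spleens (−1.83, SE 0.36; adjusted p = 0.0055). For both genes limma-voom made the same call, and DESeq2 gave no adjusted p. The Cd8b1 value of BWF1 female 1 stood at the floor of 3 counts. Cd8a was also lower in female BWF1 than in female BALB/c spleens (−1.20, SE 0.29; adjusted p = 0.0171), a call lost with DESeq2 (0.0902), with limma-voom (0.0680), and when BWF1 female 2 (0.118) or BALB/c female 3 (0.0890) was left out. Cd8b1 was higher in male BWF1 spleens than in BALB/c females (1.21, SE 0.32; adjusted p = 0.0298), a call lost under 6 of 18 alternatives, among them leaving out BWF1 male 2 (0.0749), BWF1 male 3 (0.166), BALB/c female 1 (0.126) or BALB/c female 2 (0.153). Pirb, an inhibitory receptor of myeloid and B cells, averaged 19.2 ± 5.44 CPM in female BWF1 spleens, 16.6 ± 3.03 in male BWF1 spleens and 8.51 ± 2.39 in female BALB/c spleens, and its BWF1 libraries did not overlap with the BALB/c ones. Its log2 fold changes of 1.15 in BWF1 females and 1.02 in BWF1 males against BALB/c females had edgeR adjusted p of 0.0832 and 0.0995, and limma-voom called it in BWF1 males. Klrd1, which encodes CD94, averaged 6.41 ± 5.71 CPM in female BWF1 spleens, 10.5 ± 2.75 in male BWF1 spleens and 6.48 ± 1.48 in female BALB/c spleens, with overlapping groups.

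The class II genes were read beside the class I genes. In BWF1 females against BWF1 males edgeR called 1 of 10 tested, Cd74, and DESeq2 and limma-voom called 2, Cd74 and H2-Aa. Cd74, the invariant chain, averaged 3325 ± 188 CPM in female BWF1 spleens and 5158 ± 619 CPM in male BWF1 spleens (log2 fold change −0.63, SE 0.16; edgeR adjusted p = 0.0400), a call lost under 11 of 19 alternatives. H2-Aa, the alpha chain of I-A, averaged 994 ± 157 CPM in female BWF1 spleens and 1341 ± 93.8 CPM in male BWF1 spleens, without overlap (−0.43, SE 0.15; edgeR adjusted p = 0.130). In BWF1 females against BALB/c females edgeR, DESeq2 and limma-voom each called 2 of 10, H2-Aa and H2-Oa. H2-Aa averaged 994 ± 157 CPM in female BWF1 spleens and 1776 ± 133 CPM in female BALB/c spleens (−0.84, SE 0.15; adjusted p = 0.00108). H2-Oa, a chain of the regulator H2-O, averaged 32.3 ± 6.73 and 67.1 ± 0.286 CPM in the same order (−1.05, SE 0.21; adjusted p = 0.00345). B cell markers were also lower in the BWF1 females than in the BALB/c females, as summed above, with 4 of 10 called lower by edgeR; their part in the class II differences was not tested. In BWF1 males against BALB/c females edgeR called 0 of 10, with 6 at an unadjusted p under 0.05, DESeq2 called 1 (Cd74) and limma-voom 4; H2-DMb2 had the lowest p, at 193 ± 10.7 CPM in male BWF1 spleens and 259 ± 12.7 CPM in female BALB/c spleens.

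Genes with the pattern closest to a class I gene were sought by the root mean square difference of centred log2 CPM over the 9 libraries, among the 7718 other tested genes. The nearest to B2m were Tcf7 (0.122), Il2rg (0.123) and Icmt (0.134). The nearest to H2-K1 were Rps16 (0.0818), Stk4 (0.0897) and Rassf5 (0.0916), and H2-D1 came at rank 4 (0.0919). The nearest to H2-D1 were Rpsa (0.0820), Tmbim6 (0.0885) and H2-K1 (0.0919), and Psmb8 came at rank 11 (0.113). H2-K1 and H2-D1 thus lay close to each other on this measure, whereas from B2m H2-K1 came at rank 481 and Nlrc5 at rank 5252. The 9 points share their libraries and scaling. Counting error also raises this measure, and total counts were 8741 for B2m, 7278 for H2-K1, 10806 for H2-D1 and 771 for Nlrc5. Of the 50-base stretches, 4.08% of those of H2-K1 occurred in H2-D1 and 5.44% of those of H2-D1 in H2-K1. The part of counting error and of shared sequence in these ranks was not tested.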

How the data were processed

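Libraries were made with an rRNA depletion kit and RNA library kit that the labels' protocols do not describe as marking the strand. The authors deposited 1 file of raw counts per library, ending in HTSeq summary lines; the counting setting is not given in the sources used here. The submitters' processing notes list STAR 2.6, FastQC 0.10.1 and the build mm10. Identifiers were named from GENCODE M21 (21939 of 21965 matched). Between 55.9% and 61.5% of alignments were not unique.

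The count test was that of edgeR (4.0.16, in R 4.3.3): filterByExpr (minimum count 10), TMM factors, a quasi-likelihood fit to all 9 libraries without a block, and Benjamini-Hochberg adjustment over 7719 genes at 0.05. The standard error is the log2 fold change divided by the square root of F. DESeq2 1.42.0 and limma 3.58.1 (voom) served as alternatives, beside other scalings, no filter, leaving out each library, a replicate block, the file name tag and an older edgeR fit, the last added after seeing the data. The fit was tested on simulated data. Within-library ratios were compared by exact permutation. Shared 50-base stretches were counted over GENCODE M21 transcripts. The named genes are the 10 class I genes, every called gene of each pathway list or else its lowest p, and the 3 nearest genes to B2m, H2-K1 and H2-D1. The members and lists were chosen with earlier results of these data known.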

Additional observations from a re-analysis of the deposited data

How the results depend on the processing

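B2m kept its sign under all 19 alternatives and its call under 14. Scaling by library size alone moved the median of all genes (log2) by 0.16, −0.29 and −0.44 in BWF1 females against BWF1 males, BWF1 females against BALB/c females and BWF1 males against BALB/c females, and gave 59, 130 and 274 calls over all genes against 169, 295 and 272, of which 76.3%, 17.7% and 9.49% were higher against 43.8%, 46.8% and 47.4%. It called 0 class I genes in the first comparison. It reversed H2-T23 (0.10), Psmb8 (0.074), Psmb9 (0.12), Tap1 (0.25) and Tap2 (0.058) there, H2-D1 (−0.21), H2-K1 (−0.20), Nlrc5 (−0.11), Psmb8 (−0.063), Psmb9 (−0.21) and Tap2 (−0.14) in the second, and B2m (−0.13), H2-D1 (−0.14), H2-K1 (−0.16), Psmb8 (−0.14), Psmb9 (−0.33), Tap2 (−0.20) and Tapbp (−0.11) in the third. Relative to the median shift, Tap1 in the first comparison alone changed sign. TMM scaling without Lars2 gave 166, 295 and 271 calls over all genes in the 3 comparisons, close to those of the main fit. TMM trims extreme genes with or without Lars2, so that fit cannot show what Lars2 does to scaling by library size alone. Scaling by library size without Lars2 was not run. Lars2 held 76.6% of the gene counts in BWF1 male 1, the library with the lowest TMM factor (0.530). It held 42.3% in BALB/c female 2, the library with the highest (1.40). The cause of the changes with library size alone, and the part of Lars2 in them, was not tested.

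Other reversals were of values near 0 that never passed the test. In BWF1 females against BWF1 males, Tap1 was 0.035 with DESeq2, 0.095 with limma-voom and 0.053 with the older edgeR fit, Psmb9 was 0.014 with limma-voom and H2-T23 was 0.035 in the RL libraries. As libraries were left out there, Tap1 ran from −0.19 to 0.22, Psmb9 from −0.27 to 0.045, Psmb8 from −0.26 to 0.0019 and H2-T23 from −0.29 to 0.0030. In BWF1 females against BALB/c females, H2-D1 was −0.037 with the file name tag and ran from −0.0041 to 0.16, Tapbp from −0.18 to 0.057, Psmb9 from −0.0018 to 0.20 and Tap1 from −0.22 to 0.067. In BWF1 males against BALB/c females, Tap1 ran from −0.29 to 0.12.

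Leaving out each library in turn left 0 to 1 class I genes called in BWF1 females against BWF1 males and 0 in both comparisons with BALB/c; limma-voom called 1 in BWF1 males against BALB/c females. Over all genes these refits gave 58 to 198, 184 to 370 and 119 to 393 calls. The lowest came without BWF1 male 3 (58), BALB/c female 1 (184) and BALB/c female 2 (119). DESeq2 gave 105 (with no adjusted p for 5388 of 7719 genes) and 169 calls in the comparisons of BWF1 females, limma-voom 650 and the older edgeR fit 484 in BWF1 males against BALB/c females, leaving out the filter 304 in BWF1 females against BWF1 males and 510 in BWF1 males against BALB/c females, the file name tag 160 and 153 in the comparisons with BALB/c, and the RL libraries 99.

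The H2-K1 share difference ran from −0.34 to 2.03 points in BWF1 females against BWF1 males, −0.51 to 0.97 in BWF1 females against BALB/c females, −1.87 to 0.50 in BWF1 males against BALB/c females and −0.80 to 0.30 for all BWF1 against BALB/c as libraries were left out. As a share of all H2-K, H2-D, H2-Q and H2-T counts it was 1.36 in BWF1 males and 1.5 in all BWF1 against BALB/c. The heavy chain ratio per B2m ran from 0.31 to 0.57, 0.33 to 0.60, −0.10 to 0.15 and 0.12 to 0.35 in the same order; it was −0.08 without BALB/c female 1 and −0.049 with all H2 counts for BWF1 males against BALB/c females. The immunoproteasome ratio ran from −0.29 to −0.09, 0.11 to 0.29 and 0.30 to 0.50, and per Psmb5 plus Psmb6 it was −0.16 in BWF1 females against BALB/c females.

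Deviations of same-numbered libraries correlated at −0.09 to 0.06 in 9 pairs, and those of differently numbered ones at −0.12 to 0.14 in 18. The labels do not say what a shared number means, and correlations of such low counts cannot decide it. With a replicate block, 118, 255 and 240 genes were called, and 1, 0 and 0 of the class I genes; B2m had an edgeR adjusted p of 0.0351, and the Cd74 (0.0778) and Igtp (0.0727) calls ended. Paired by number, the ratio tests had exact permutation p from 0.25 to 1. The smallest p that 3 pairs allow is 0.25, so none of these could have passed 0.05. The depth of BWF1 females, with 20 to 64 counts for Psmb9, Tap1, Tap2, H2-T23, Psmb8 and Nlrc5 in each library, limits small differences.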

Other observations

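Low counts in the receptor genes differed in where they stood at 0; these genes were chosen after their values were seen. Klra4, which encodes Ly49D, had 2, 5 and 3 counts in BWF1 females, 1, 10 and 31 counts in BWF1 males and 0 counts in all 3 BALB/c libraries. Klra3, which encodes Ly49C, had 0 counts in all 3 BWF1 females, 0, 1 and 0 counts in BWF1 males and 6, 2 and 3 counts in BALB/c females. Both lay under the count filter and were not tested, and genes of this family share sequence, so how their reads were split between them is not known. Whether the strains carry the same genes of this family was not examined.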
